A study of Homo sapiens with 6 samples.

Results

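The 9 genes examined here encode the core factors of nonsense-mediated decay (NMD): UPF1, UPF2, UPF3A, UPF3B, SMG1, SMG5, SMG6, SMG8 and SMG9. They were chosen by name, and every transcript filed under their Ensembl gene identifiers was taken, which gave 94 of the 207167 transcripts and 9 of the 63190 genes listed. RNA-seq of total RNA compared HEK293 cells, a line derived from human embryonic kidney, that overexpressed DIS3L2 carrying the D391N mutation (3 libraries) with HEK293 cells without the construct, labelled control (3 libraries). The labels call both HEK293, and the study's methods name the control line HEK293T-Rex FlipIn. DIS3L2 is a 3′ to 5′ exoribonuclease that degrades RNAs with untemplated U tails, and D391N removes its catalytic activity. The study kept the construct stably integrated in HEK293T-Rex cells and induced it with doxycycline. Whether the control cells received doxycycline is not given in the sources used here. Both groups keep their own DIS3L2 gene, and each condition rests on 1 cell line, so the construct and the line cannot be told apart. Nothing states that the replicates were separate cultures, and p-values then measure only the spread between these libraries, which may be technical.

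NMD destroys mRNAs on which the ribosome stops too early, usually upstream of an exon junction that still carries an exon junction complex. UPF1 is the RNA helicase at its centre. UPF2 and either of the paralogues UPF3A and UPF3B connect UPF1 with that complex. SMG1 is the kinase that phosphorylates UPF1 and is held in a complex with SMG8 and SMG9. Phosphorylated UPF1 then recruits SMG6, an endonuclease that cuts near the stop codon, and SMG5, an adaptor to deadenylation and decapping. Several of these mRNAs are themselves NMD substrates, which places the pathway under feedback control.

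Levels are given as RPKM, reads scaled to transcript length and to the mapped reads of the library, and a gene's level is the sum over its transcripts. A fold change is the D391N mean minus the control mean of log2(RPKM + 0.1), fitted with limma across all genes or all transcripts whose mean reached 1 RPKM, and a call is a Benjamini-Hochberg adjusted p under 0.05. Because the libraries are bulk RNA, fewer cells of a type and less RNA per cell cannot be told apart. DIS3L2 itself, which checks the labels, stood at 11.8 to 14.6 RPKM in the controls and at 369, 467 and 512 RPKM in the D391N libraries, a log2 fold change of 5.08 ± 0.18 (SE, adjusted p = 0.000268). Relative depth ran from 0.615 to 1 of the deepest library, control replicate 2, and D391N replicate 2 was the shallowest. D391N replicate 2 also had the lowest sum of RPKM over all transcripts. Of 7 genes chosen as HEK293 markers, 6 reached a mean of 1 RPKM and NEFM did not. KRT8, a keratin, ranged from 98.6 to 180 RPKM. None of the 6 was called, but KRT8, KRT18 and VIM had D391N values below all control values (log2 fold changes −0.69, −0.27 and −0.43), and their part in the results below was not tested. Of the 5 markers of other cell types, PECAM1 had no match, MYH7 was near 0, and ALB, PTPRC and COL1A1 stayed at 0.596 to 4.05 RPKM.

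None of the 9 NMD factor genes was called, with adjusted p-values from 0.142 to 0.960, against 0.140% of the 20714 genes tested. At an unadjusted p under 0.05 there were 2, UPF3B with the higher mean in D391N cells and SMG9 with the lower mean. These are 22.2% of the members, against 22.7% of all genes. The D391N libraries lay above every control for 1 gene, UPF3B, where 10.5% of all genes did so. They lay below every control for 2, SMG1 and SMG9, where 20.7% of all genes did so. Counted this way the 9 genes stood near the background. The background itself turns with the scaling, since median centring of each library puts 21.2% of all genes above and 11.5% below the controls, and quantile normalization 18.0% and 13.3%. Their median log2 fold change was 0.025, with 5 positive and 4 negative, and that of all genes was −0.090. The plot of gene levels shows that much of the spread came from 1 library, since D391N replicate 2 was the highest of all 6 for UPF2, UPF3A, UPF3B and SMG6.

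**Figure D1:**
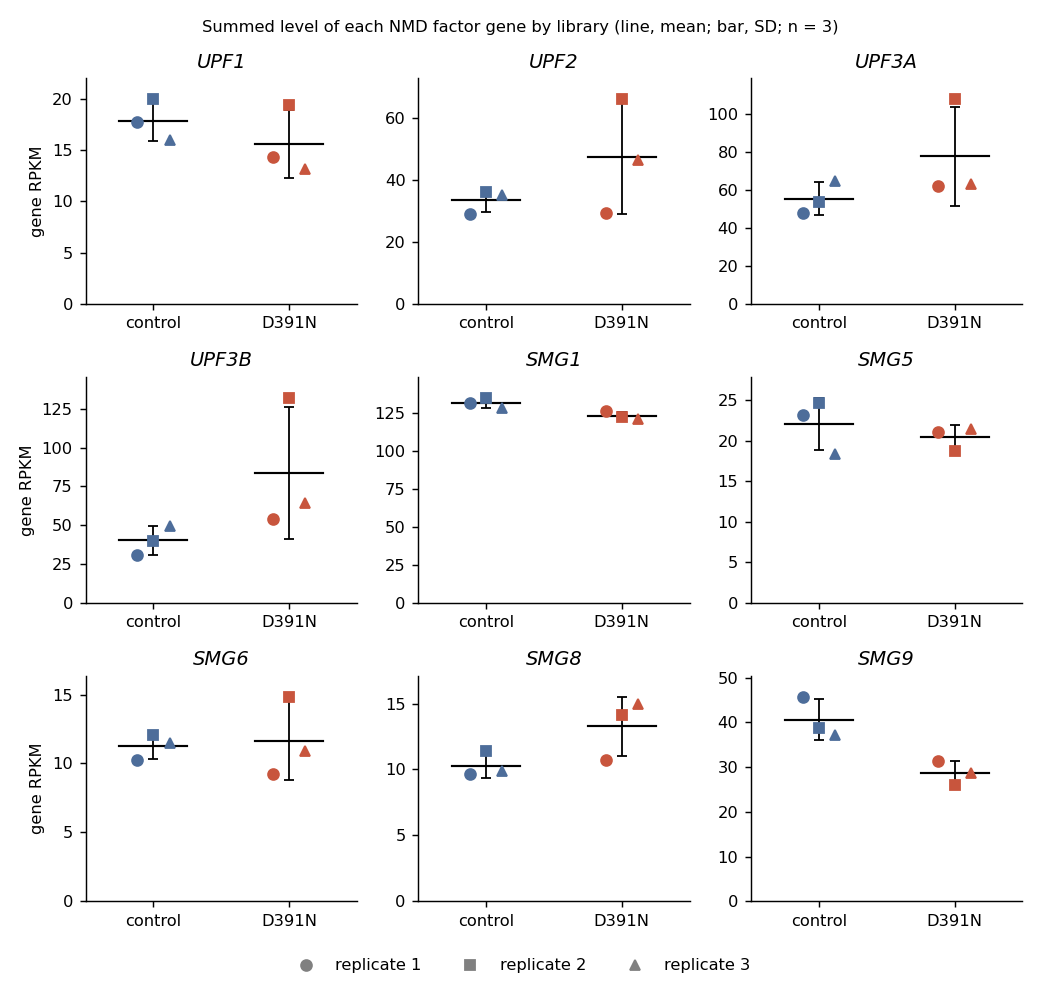
Summed RPKM (y axis, linear, from 0) of the 9 NMD factor genes in 3 control and 3 D391N libraries. Points are libraries with a marker for each replicate, lines are means and bars are SD. All D391N points lie below the controls for SMG9 and SMG1 and above them for UPF3B, and D391N replicate 2 stands above the rest for UPF2, UPF3A and UPF3B.

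**Figure D2:**
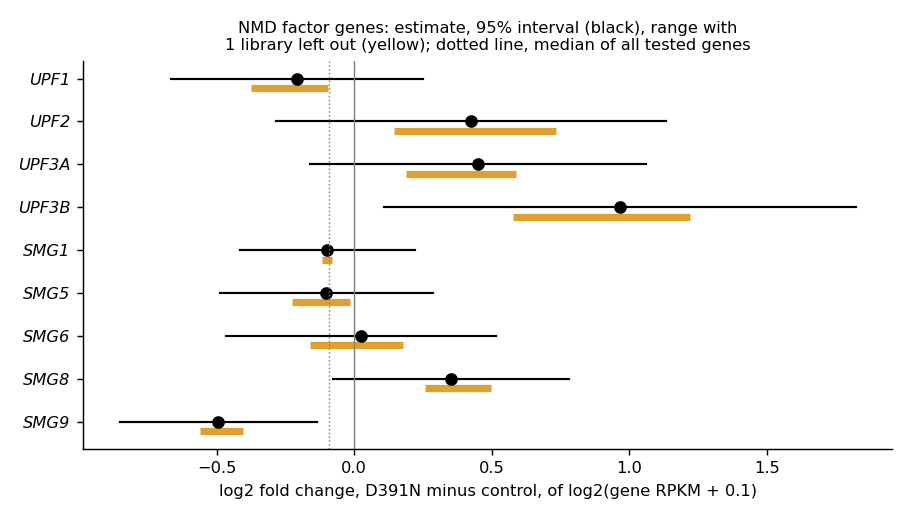
Log2 fold change of each NMD factor gene, D391N minus control (x axis), with its 95% interval in black and the range of estimates with 1 library left out in yellow. The dotted line is the median of all tested genes, −0.090. The intervals of UPF3B and SMG9 exclude 0 before adjustment, and neither gene passes the adjusted threshold.

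The letters at the compared sites are given first. They set the isoforms apart only in part, since some isoforms also differ elsewhere. They were read from the GENCODE v44lift37 transcript sequences, written 5′ to 3′ in the direction of transcription, with positions on GRCh37, while the authors' values rest on GRCh38 transcripts. In the longer printed sequence of each group, capitals mark bases that the other form splices out. In the shorter printed sequence, capitals mark the bases that meet the junction in their place.

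UPF3B is on the minus strand, and its coding ENST00000276201 holds an exon of 39 nt at chrX:118974609-118974647 that ENST00000345865 lacks. In all these transcripts have 2343 and 2335 nt, so they also differ elsewhere, in bases not printed here. Another transcript, annotated as a retained intron, carries that exon and runs on for 52 nt at chrX:118974557-118974608.
ENST00000345865: gaaccaaagattaagCTGCTCAAGAAGCCA
ENST00000276201: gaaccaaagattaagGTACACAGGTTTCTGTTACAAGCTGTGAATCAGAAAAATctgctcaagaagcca
ENST00000478840: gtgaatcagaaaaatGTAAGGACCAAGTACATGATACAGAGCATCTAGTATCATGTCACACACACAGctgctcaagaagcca
Read in the frame of ENST00000276201, the extension of ENST00000478840 brings a TAG stop that ends 33 nt after the junction and 19 nt before the last exon junction.

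SMG9 is on the minus strand, and 2 retained-intron transcripts each hold intron sequence at one edge of an exon that the coding transcript splices. ENST00000595700 runs on into the intron at chr19:44242002-44242273, of which the start is shown. ENST00000600097 begins inside the intron at chr19:44237155-44237262, of which the end is shown.
ENST00000270066: tacgttgaaatgcagTCACTCCAGATTGCT
ENST00000595700: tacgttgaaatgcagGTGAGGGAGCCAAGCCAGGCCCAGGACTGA
ENST00000270066: ACCCACCAAGAGCAGgacctggttccagcc
ENST00000600097: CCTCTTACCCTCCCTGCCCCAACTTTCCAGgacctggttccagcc
The 30 intron bases shown for ENST00000595700 end in TGA, a stop in the frame of ENST00000270066. This stop lies past the last exon junction of ENST00000595700, not before it.

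UPF1 is on the plus strand, and ENST00000599848 holds 33 nt at chr19:18963881-18963913 that ENST00000262803 lacks, which lengthen a loop of the helicase. These 2 coding transcripts have 5311 and 5321 nt in all, so they also differ elsewhere, in bases not printed here. SMG5 is on the minus strand, and ENST00000489907 extends an exon by 34 nt at chr1:156236298-156236331, which shifts the frame and brings a TGA stop ending 38 nt after the junction. That stop ends past the last exon junction of ENST00000489907, not before it. Here and above, the last exon junction is that of the annotated transcript. ENST00000489907 has 535 nt, ENST00000478840 748 nt and ENST00000595700 1401 nt, all shorter than the coding forms printed beside them. Whether a longer mRNA with the same sequence has further junctions was not examined, so these positions do not show whether NMD would act.
ENST00000262803: ccaagactgactctgACATGCGGCTCATGC
ENST00000599848: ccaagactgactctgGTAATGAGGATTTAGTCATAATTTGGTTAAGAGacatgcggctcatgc
ENST00000361813: agagtgatggcacagATGAACCAGAGTCCA
ENST00000489907: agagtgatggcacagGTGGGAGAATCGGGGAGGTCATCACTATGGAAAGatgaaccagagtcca

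**Figure D3:**
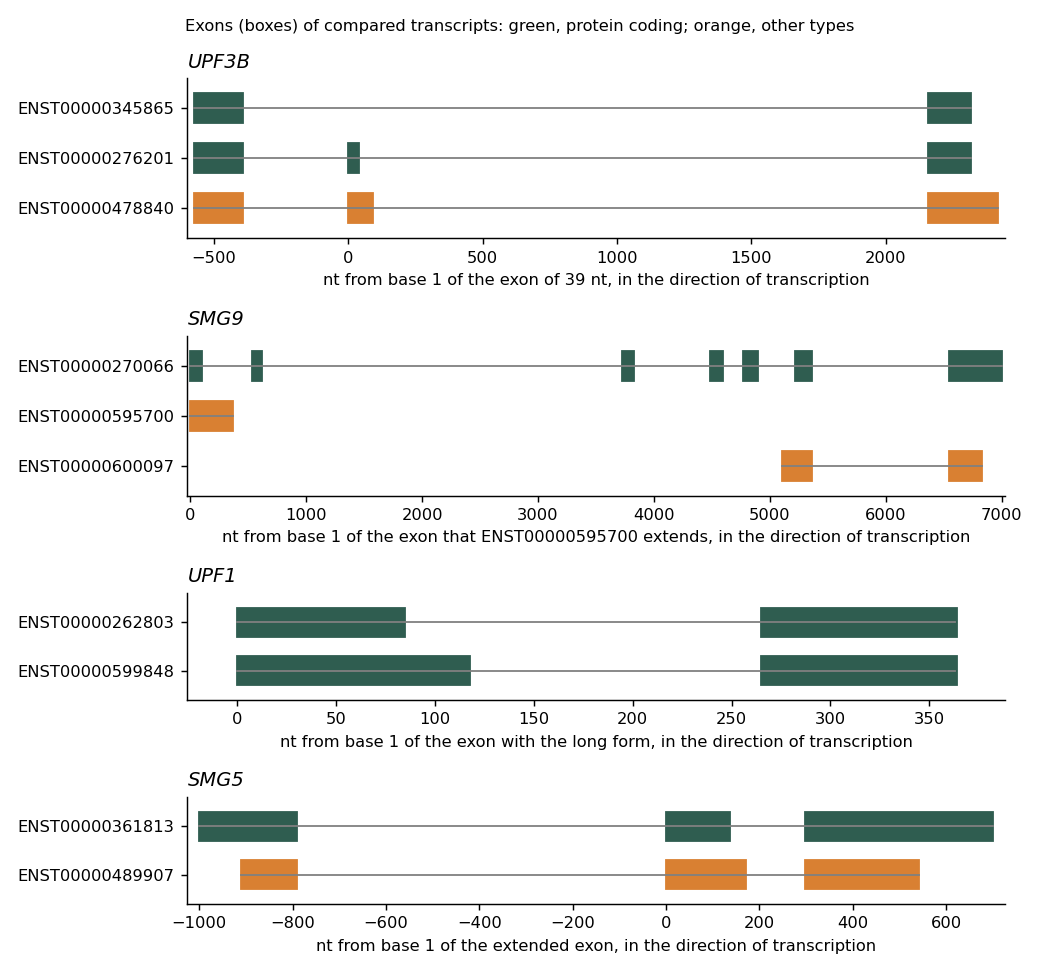
Exons (boxes) of the compared transcripts of UPF3B, SMG9, UPF1 and SMG5, with the distance in nt from the named base on the x axis, in the direction of transcription. Green transcripts are annotated as protein coding and orange ones as other types. Exons outside the plotted window are not drawn.

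Of the 94 transcripts, 47 reached a mean of 1 RPKM, and none of these was called, against 0.0604% of the 54671 transcripts tested. The lowest adjusted p among them was 0.185. At an unadjusted p under 0.05 there were 6, or 12.8%, against 17.6% of all transcripts. In 4 the D391N libraries lay above every control, where 10.1% of all transcripts did so. In 6 they lay below every control, where 15.6% did so. By annotated type, 18 of 43 protein-coding transcripts, 13 of 23 retained introns, 12 of 23 without a defined coding frame and 2 of 3 annotated as NMD substrates were tested, and 2 more were not in the annotation used. The 12 transcripts without a coding frame had a median log2 fold change of 0.73, with 10 positive and 2 negative. All such transcripts had a median of 0.015, and 50.9% of them were positive. Of the 12, 7 are isoforms of UPF3A, between which reads are shared out, so the 12 are not independent. ENST00000580498 of SMG8, for which no fold is given below, is also among them. Coding members had a median of −0.045, against −0.097 for all coding transcripts. Retained introns had a median of −0.079, with 9 of 13 negative, against a median of 0.00029 and 49.9% negative for all retained introns. All 5 retained introns of SMG9 are among the negative ones, and most of the rest are isoforms of SMG1. Reads are shared out between isoforms of a gene, so the 13 are not independent either. The stacked plot of transcript types shows which type carried each gene's level.

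**Figure D4:**
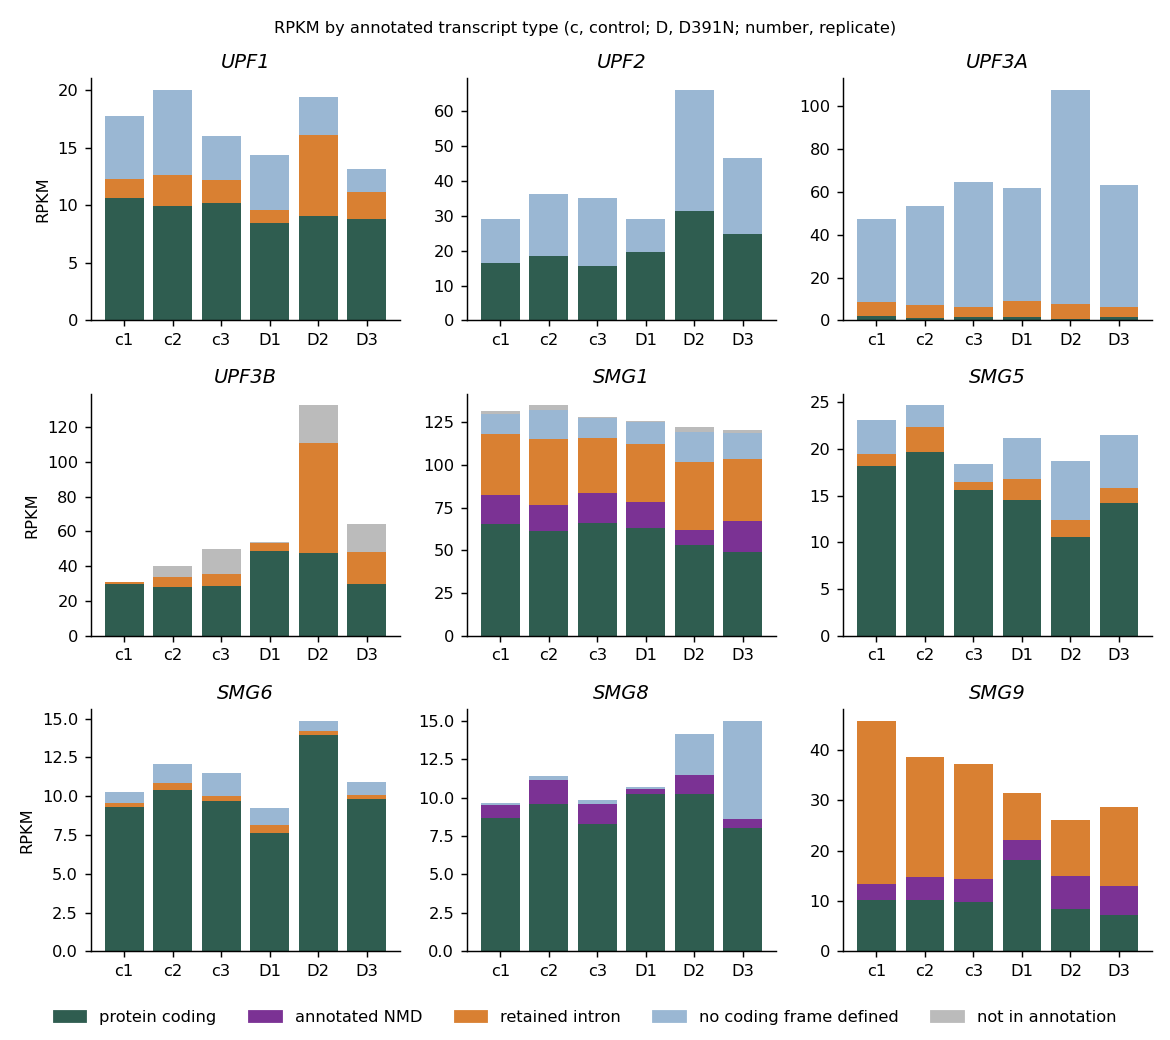
RPKM of each NMD factor gene (y axis, from 0) split by annotated transcript type, in control (c) and D391N (D) replicates 1 to 3. The retained introns of SMG9 sum to 9.36 to 15.8 RPKM in D391N and 23.0 to 32.3 RPKM in control libraries, and the retained intron of UPF3B reaches 63.4 RPKM in D391N replicate 2.

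UPF1 (ENSG00000005007, chr19:18942768-18979039), the helicase, had gene levels of 14.4, 19.4 and 13.1 RPKM in D391N replicates 1, 2 and 3, and of 17.7, 19.999 and 16.0 RPKM in the controls. The groups overlapped, and the log2 fold change was −0.21 ± 0.19 (SE; 95% interval −0.67 to 0.25; limma adjusted p = 0.551). Its 2 coding transcripts together gave 8.45, 9.07 and 8.77 RPKM in D391N cells and 10.6, 9.95 and 10.2 RPKM in the controls, a mean of 8.76 ± 0.31 against 10.3 ± 0.32 (SD, n = 3). This coding sum was lower in each D391N library with little spread within either group, although 3 libraries against 3 cannot give an exact two-sided permutation p below 0.10. Of all genes, 20.7% also lay below every control by the sum over all their transcripts, as did 18.0% of single protein-coding transcripts. The share for sums of coding transcripts was not computed. Median centring, which moved the log2 fold change of the UPF1 gene to 0.010, was not applied to this sum. The short-loop form ENST00000262803 was measured at 5.997, 4.68 and 5.30 RPKM in D391N libraries and at 8.47, 7.14 and 7.15 RPKM in controls. All D391N values were below all controls, with a log2 fold change of −0.51 ± 0.24 (SE, limma adjusted p = 0.317). The long-loop form ENST00000599848 stood at 2.45, 4.40 and 3.47 RPKM against 2.12, 2.81 and 3.07 RPKM, so that the groups overlapped (log2 fold change 0.33 ± 0.32, SE, limma adjusted p = 0.606). As a share of both forms the long loop made up 29.0%, 48.5% and 39.6% in D391N cells and 20.04%, 28.2% and 30.1% in controls, which overlap (exact permutation p = 0.20, two-sided). The 2 forms share nearly all their bases, and the posterior variance of the long form equals that of only 5.20 to 12.5 reads. Such equivalent reads fall with doubtful assignment between isoforms as well as with few reads, so they are not counts of reads. This long form is on the study's list of RNAs crosslinked to DIS3L2 D391N, as is 1 other transcript of the 9 genes, ENST00000389467 of SMG1, which was not analysed here. The share of all transcripts on that list was not computed, so these entries cannot be read as an excess. Where in UPF1 the crosslinked reads lie was not examined, so the entry does not set the long form apart from the short one. ENST00000601981, a transcript of 4990 nt without a defined frame, had 1.61, 0.457 and 0.367 RPKM in D391N libraries and 2.55, 3.21 and 1.70 RPKM in controls, lower in each D391N library (log2 fold change −1.72 ± 0.58, SE, limma adjusted p = 0.219). D391N replicates 2 and 3 have 1.78 and 1.98 equivalent reads there, under a floor of 3. Without D391N replicate 1 those libraries alone stand for D391N (limma adjusted p = 0.032), and no fold is given for that fit. It called 4961 of all 54671 transcripts.

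UPF2 (ENSG00000151461, chr10:11962021-12085169), the bridge between UPF1 and the UPF3 proteins, was measured at 29.2, 66.1 and 46.5 RPKM in D391N cells and at 29.0, 36.2 and 35.2 RPKM in controls. D391N replicates 2 and 3 were above the controls and replicate 1 was among them. The log2 fold change was 0.43 ± 0.30 (SE; 95% interval −0.28 to 1.13; limma adjusted p = 0.428), and without D391N replicate 2 it was 0.15. Its coding transcript ENST00000357604 had 19.2, 30.02 and 24.1 RPKM in D391N libraries and 16.0, 18.0 and 15.3 RPKM in controls. Here each D391N library exceeded each control (log2 fold change 0.55 ± 0.25, SE, limma adjusted p = 0.314). The other abundant transcript, ENST00000460569 of 640 nt without a frame, ranged from 9.53 to 34.9 RPKM in D391N cells and from 12.7 to 19.5 RPKM in controls, and overlapped. The coding transcript thus accounted for 65.7%, 45.4% and 51.8% of the gene in D391N cells and for 55.1%, 49.7% and 43.3% in controls.

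UPF3B (ENSG00000125351, chrX:118967985-118986961), the paralogue with the stronger known NMD activity, gave 54.0, 132 and 64.1 RPKM in D391N libraries and 31.0, 39.8 and 49.7 RPKM in controls. Each D391N library was above each control, and replicate 2 was above the others. The log2 fold change of 0.96 ± 0.36 (SE; 95% interval 0.11 to 1.82) was the largest of the 9 genes and did not pass adjustment (limma adjusted p = 0.186). It was 0.58 without D391N replicate 2, the lowest value on leaving out any library. Different transcripts carried the excess in different libraries. The form without the 39-nt exon, ENST00000345865, had 42.4, 33.3 and 22.3 RPKM in D391N cells and 22.7, 22.8 and 18.6 RPKM in controls, with D391N replicate 3 just under 2 of the controls (log2 fold change 0.57 ± 0.30, SE, limma adjusted p = 0.364). The form with that exon, ENST00000276201, made up 13.2%, 29.9% and 24.9% of both coding forms in D391N cells and 23.7%, 18.5% and 35.5% in controls, with an exact permutation p of 0.80 (two-sided). ENST00000478840, the retained-intron form printed above, was at 4.25, 63.4 and 18.3 RPKM in D391N libraries and at 0.857, 5.53 and 6.65 RPKM in controls. D391N replicates 2 and 3 were above every control and replicate 1 was not, with a log2 fold change of 2.38 ± 1.12 (SE, limma adjusted p = 0.321). It was 1.43 without D391N replicate 2 and 1.48 without control replicate 1. ENST00000619445, not in the annotation used, had 0.882, 21.4 and 16.1 RPKM in D391N libraries and 0.390, 6.30 and 14.25 RPKM in controls, with overlap. It had under 3 equivalent reads in D391N replicate 1 and control replicate 1, so no fold is given. Of the gene sum, ENST00000345865 made up 78.5%, 25.2% and 34.8% in D391N cells and 73.2%, 57.3% and 37.4% in controls.

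UPF3A (ENSG00000169062, chr13:115047076-115071292), the paralogue of UPF3B, had 61.7, 108 and 63.1 RPKM in D391N cells and 47.6, 53.4 and 64.7 RPKM in controls. The groups overlapped, with a log2 fold change of 0.45 ± 0.26 (SE; 95% interval −0.16 to 1.06; limma adjusted p = 0.334). Leaving out D391N replicate 2 gave 0.19. Its 3 coding transcripts together held only 1.18 ± 0.41 RPKM in D391N cells and 1.73 ± 0.53 RPKM in controls (SD, n = 3). Nearly all of the gene's level was assigned to 7 transcripts without a defined frame, with 69.7 ± 26.2 RPKM against 47.9 ± 9.67 RPKM. Among these, ENST00000479712 of 423 nt was measured at 7.40, 19.0 and 12.4 RPKM in D391N cells and at 5.77, 6.76 and 4.67 RPKM in controls, each D391N library above each control (log2 fold change 1.07 ± 0.38, SE, limma adjusted p = 0.234). Without D391N replicate 1 the limma adjusted p was 0.045, in a fit that called 4961 of all 54671 transcripts. ENST00000475218 of 1791 nt had the opposite sign, at −0.60 (limma adjusted p = 0.331). UPF3A values are uncertain, since 2.70% to 65.2% of the 50-base windows of its tested transcripts, the length of the reads, also occur in other genes. Its copies UPF3AP1, UPF3AP2 or UPF3AP3 are among those genes for each of these transcripts. Those copies summed to 6.35 ± 2.68 RPKM in D391N cells and 4.74 ± 2.04 RPKM in controls (SD, n = 3).

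SMG1 (ENSG00000157106, chr16:18816182-18937730), the UPF1 kinase, was the steadiest gene of the group, with 126, 122 and 121 RPKM in D391N libraries and 131, 135 and 128 RPKM in controls. Each D391N library was below each control, but the difference was small, with a log2 fold change of −0.10 ± 0.13 (SE; 95% interval −0.42 to 0.22; limma adjusted p = 0.698). It was spread over 14 tested transcripts. Of the long coding forms, ENST00000565324 (12465 nt) had 15.9, 22.4 and 17.5 RPKM in D391N cells and 14.3, 15.5 and 15.9 RPKM in controls. Each D391N library was above each control, though replicate 1 only just (log2 fold change 0.27 ± 0.24, SE, limma adjusted p = 0.564). ENST00000446231 (16062 nt) had 5.09, 3.24 and 7.04 RPKM against 7.28, 7.40 and 6.30 RPKM, with overlap and a log2 fold change of −0.51 ± 0.33 (SE, limma adjusted p = 0.447). The retained intron ENST00000569764, the single most abundant SMG1 transcript, ranged from 17.4 to 23.6 RPKM in D391N cells and from 15.5 to 20.6 RPKM in controls. ENST00000568038, annotated as an NMD substrate with a stop 157 nt before its last exon junction, ranged from 8.93 to 17.7 RPKM in D391N cells and from 15.7 to 17.8 RPKM in controls, and overlapped (log2 fold change −0.33 ± 0.31, SE, limma adjusted p = 0.604). SMG1 has many partial genomic copies, and up to 63.7% of the 50-base windows of its tested transcripts recur elsewhere, that figure being for ENST00000568038. The 7 SMG1P copies listed summed to 187 ± 9.44 RPKM in D391N cells and 181 ± 18.3 RPKM in controls (SD, n = 3). SMG1 together with these copies came to 310 ± 11.6 against 313 ± 21.0 RPKM.

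SMG8 (ENSG00000167447, chr17:57286761-57292600), a regulatory partner of the kinase, stood at 10.7, 14.1 and 14.98 RPKM in D391N cells and at 9.65, 11.4 and 9.86 RPKM in controls. D391N replicates 2 and 3 were above the controls, and the log2 fold change was 0.35 ± 0.18 (SE; 95% interval −0.077 to 0.78; limma adjusted p = 0.288). Its coding transcript ENST00000300917 showed no such separation, at 10.04, 9.53 and 7.18 RPKM against 8.25, 9.13 and 7.95 RPKM (log2 fold change 0.065 ± 0.24, SE, limma adjusted p = 0.909). The rest came from ENST00000580498, a transcript of 785 nt without a frame, which had 2.62 and 6.38 RPKM in D391N replicates 2 and 3. In D391N replicate 1 and in all 3 controls its estimates, 0.151 to 0.305 RPKM, had under 3 equivalent reads, so no fold is given. With D391N replicate 1 left out, this transcript passed the limma threshold (adjusted p = 0.022), in a fit that called 4961 of all 54671 transcripts. For the coding transcript, 11.89% of the windows are shared with an overlapping readthrough gene.

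SMG9 (ENSG00000105771, chr19:44232135-44259114), the other partner of the kinase, had 31.5, 26.1 and 28.7 RPKM in D391N libraries and 45.8, 38.7 and 37.3 RPKM in controls. The groups did not overlap, and the log2 fold change was −0.49 ± 0.15 (SE; 95% interval −0.85 to −0.14). It had the lowest adjusted p of the 9 genes, 0.142 by limma, and stayed between −0.56 and −0.40 when any library was left out. Median centring of each library moved it to −0.27 (limma adjusted p = 0.361). The difference lay in the retained introns, as the plot of transcript levels shows. Those 5 transcripts summed to 9.36, 11.2 and 15.8 RPKM in D391N cells and to 32.3, 23.8 and 23.0 RPKM in controls. ENST00000600097 had 0.928, 3.32 and 4.46 RPKM in D391N libraries and 13.0, 7.90 and 9.48 RPKM in controls, with a log2 fold change of −1.99 ± 0.57 (SE, limma adjusted p = 0.185). ENST00000595700 had 3.17, 1.65 and 5.25 RPKM against 9.35, 8.01 and 7.86 RPKM, with a log2 fold change of −1.44 ± 0.42 (SE, limma adjusted p = 0.190). In both, every D391N value was below every control value, and neither passed the threshold. Their lowest equivalent reads were 3.90, in D391N replicate 1 for ENST00000600097, and 3.42, in D391N replicate 2 for ENST00000595700. These are just above the floor of 3. Another retained intron, ENST00000594081, was also lower in each D391N library, at 0.719 to 0.879 RPKM against 0.941 to 1.56 RPKM. The remaining retained introns, ENST00000598860 and ENST00000598886, overlapped. The coding transcript ENST00000270066 overlapped, at 8.55, 6.31 and 4.29 RPKM in D391N cells and 5.99, 6.60 and 6.33 RPKM in controls (log2 fold change −0.037 ± 0.31, SE, limma adjusted p = 0.962). The annotated NMD substrate ENST00000597598, whose stop lies 568 nt before its last exon junction, had 4.03, 6.44 and 5.72 RPKM against 3.35, 4.64 and 4.52 RPKM, with overlap (log2 fold change 0.35 ± 0.29, SE, limma adjusted p = 0.548). As a share of the gene, ENST00000600097 made up 2.95%, 12.7% and 15.5% in D391N cells and 28.5%, 20.4% and 25.4% in controls, which is 14.4 points lower (exact permutation p = 0.10, two-sided, the smallest that 3 against 3 allows).

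**Figure D5:**
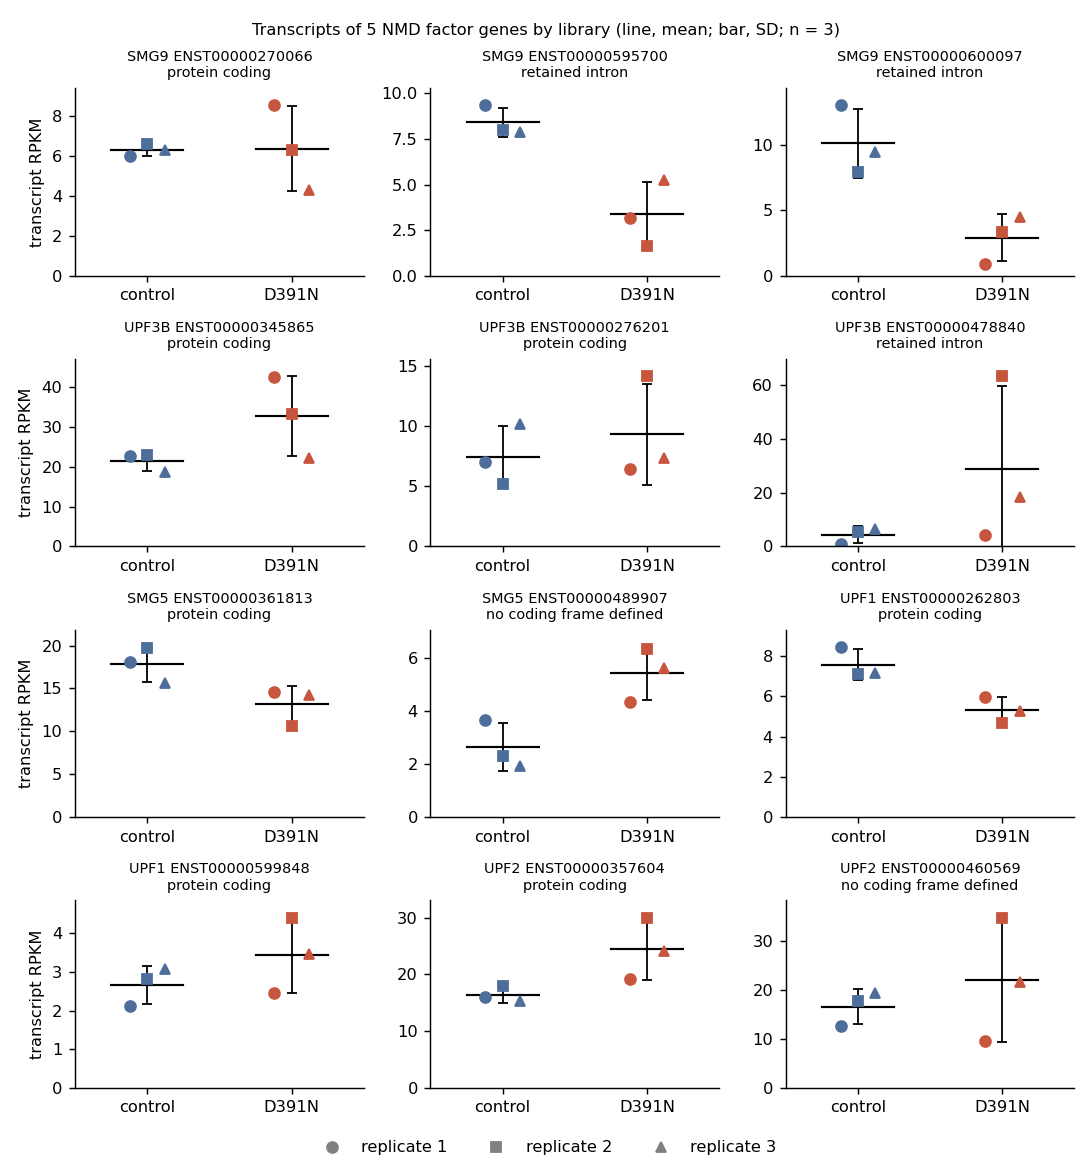
RPKM (y axis, linear, from 0) of 12 transcripts of SMG9, UPF3B, SMG5, UPF1 and UPF2 by library, with the mean as a line and SD as bars, cut at 0. The SMG9 retained introns ENST00000595700 and ENST00000600097 lie lower in all 3 D391N libraries, and SMG5 ENST00000489907 lies higher, while the SMG9 coding transcript overlaps.

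SMG5 (ENSG00000198952, chr1:156219015-156252616), the adaptor to deadenylation, gave 21.1, 18.7 and 21.4 RPKM in D391N cells and 23.1, 24.6 and 18.4 RPKM in controls. The gene sums overlapped (log2 fold change −0.10 ± 0.16, SE; 95% interval −0.49 to 0.29; limma adjusted p = 0.745), while its 2 tested transcripts had opposite signs. The coding transcript ENST00000361813 had 14.6, 10.6 and 14.2 RPKM in D391N libraries and 18.1, 19.7 and 15.6 RPKM in controls, lower in each D391N library (log2 fold change −0.44 ± 0.25, SE, limma adjusted p = 0.380). ENST00000489907, with the extended exon printed above, had 4.36, 6.33 and 5.62 RPKM against 3.67, 2.30 and 1.94 RPKM, higher in each D391N library (log2 fold change 1.05 ± 0.32, SE, limma adjusted p = 0.1996). This short transcript of 535 nt has 1.71 to 24.9 equivalent reads a library. Of the 2 transcripts together, the extended form made up 23.0%, 37.4% and 28.3% in D391N cells and 16.8%, 10.5% and 11.1% in controls, with an exact permutation p of 0.10 (two-sided). The coding transcript's share of the whole gene was 69.0%, 56.5% and 66.4% in D391N cells against 78.4%, 79.9% and 84.8% in controls, or 17.0 points lower with the same exact p of 0.10. SMG5 and SMG9 were the 2 of 9 genes whose leading isoform had a share that did not overlap between the groups, and 22.1% of the 14174 tested genes with at least 2 transcripts did the same. A count of 2 in 9 is near that background.

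SMG6 (ENSG00000070366, chr17:1963133-2207079), the endonuclease, was at 9.23, 14.9 and 10.9 RPKM in D391N cells and at 10.2, 12.1 and 11.5 RPKM in controls. The D391N values lay on both sides of the controls, and the log2 fold change was 0.025 ± 0.21 (SE; 95% interval −0.47 to 0.52; limma adjusted p = 0.960). Of its 20 transcripts only the coding ENST00000263073 reached 1 RPKM, at 6.22, 9.01 and 7.40 RPKM against 6.80, 7.56 and 6.73 RPKM. It differed by 0.085 ± 0.24 on the log2 scale (SE, limma adjusted p = 0.878). Of its windows 29.2% are antisense to HIC1, whose reads cannot be told apart if strand was not used in counting.

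Because RPKM is a level per length, the main coding form of each gene, the most abundant coding transcript of at least 2000 nt, can be set in order within each group. In the controls UPF3B came first with a mean of 21.4 ± 2.43 RPKM (SD, n = 3), followed by SMG5 with 17.8 ± 2.06, UPF2 with 16.4 ± 1.40 and SMG1 with 15.2 ± 0.826 RPKM. Each of these overlapped with the next in range. A lower run began with SMG8 at 8.44 ± 0.615 RPKM, below every SMG1 value, and went on with UPF1 at 7.59 ± 0.767 and SMG6 at 7.03 ± 0.460 RPKM, neighbours that overlapped. SMG9 followed at 6.31 ± 0.304 RPKM without meeting the SMG6 values, and UPF3A was last, with ENST00000375299 at 0.659 ± 0.716 RPKM. That UPF3A form has at most 2.70 equivalent reads in any library. The order ranks only 1 form a gene. Both coding forms of UPF1 together came to 10.3 RPKM in controls, against 8.84 RPKM for all coding transcripts of SMG8. In D391N cells the order differed, with UPF3B at 32.7 ± 10.1, UPF2 at 24.4 ± 5.43, SMG1 at 18.6 ± 3.39 and SMG5 at 13.1 ± 2.21 RPKM, where only SMG5 stood apart from its neighbours. SMG8 at 8.91 ± 1.53, SMG6 at 7.54 ± 1.40, SMG9 at 6.38 ± 2.13 and UPF1 at 5.32 ± 0.661 RPKM came next and overlapped from one to the next, and UPF3A was again last at 0.424 ± 0.272 RPKM.

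The other genes of the pathway were taken from 4 lists, and 0 of these 30 genes were called, while 4 had an unadjusted p under 0.05, 2 higher and 2 lower. The 4 make 13.3% of the 30, below the 22.7% of all genes. Their median log2 fold change was 0.12 with 17 positive, beside a median of −0.090 and 42.7% positive for all genes. Of the 8 genes of the exon junction complex and its partners, MAGOHB, a MAGOH paralogue of the complex's core, had the highest value, at 75.2, 84.3 and 89.0 RPKM in D391N cells and 63.1, 59.2 and 46.5 RPKM in controls (log2 fold change 0.57 ± 0.17, SE, limma adjusted p = 0.139). EIF4A3, the helicase that anchors the complex to RNA, had the lowest at −0.23 (limma adjusted p = 0.430). Among 6 genes of translation termination and cap binding, ETF1, the release factor eRF1, stood at 104, 106 and 114 RPKM against 80.2, 82.1 and 61.1 RPKM, again without overlap (log2 fold change 0.55 ± 0.17, SE, limma adjusted p = 0.142). NCBP2, of the nuclear cap-binding complex, was lowest there at −0.16 (limma adjusted p = 0.493).

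Among 10 accessory factors, TELO2, a chaperone of SMG1 and related kinases, had the lowest value, with 4.79, 5.64 and 3.91 RPKM in D391N libraries and 9.51, 8.67 and 7.08 RPKM in controls. All 3 D391N libraries were below all controls (log2 fold change −0.81 ± 0.21, SE, limma adjusted p = 0.113). The 6 decapping and decay genes ran from DCP1A at −0.22 (limma adjusted p = 0.519) to DCP2, the decapping enzyme, at 0.37 (limma adjusted p = 0.224).

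Genes known to give NMD substrates were read beside the factors. Of 12 such genes none was called, 1 had an unadjusted p under 0.05, 10 had a negative fold change, and the median was −0.34. Of all genes 22.7% had such a p and 57.3% were negative, with a median of −0.090. Median centring of each library moved the median of all genes up by 0.22. All snoRNA host genes among the 12 were negative. The gene with the unadjusted p under 0.05 was ATF4, a stress transcription factor whose mRNA carries upstream reading frames, with 285, 251 and 282 RPKM in D391N cells and 398, 394 and 483 RPKM in controls. It was lower in each D391N library (log2 fold change −0.63 ± 0.18, SE, limma adjusted p = 0.129). SNHG1, a snoRNA host gene, had the lowest value, at 301, 42.2 and 106 RPKM against 315, 255 and 292 RPKM. D391N replicates 2 and 3 were far below the controls and replicate 1 was among them (log2 fold change −1.37 ± 0.65, SE, limma adjusted p = 0.256). Leaving out that replicate gave −2.10 with a limma adjusted p of 0.031, in a fit that called 2261 of all 20714 genes. GADD45A, a growth-arrest gene, had the highest, with 27.3, 81.2 and 30.7 RPKM against 23.2, 20.3 and 26.9 RPKM, each D391N library above each control and replicate 2 far above (log2 fold change 0.81 ± 0.41, SE, limma adjusted p = 0.287). The 7 SMG1 copies ran from SMG1P2 at −0.42 to SMG1P5 at 0.19, with none called by limma and none at an unadjusted p under 0.05.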

How the data were processed

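Ribosomal RNA was depleted from total RNA, and 50-nt single-end reads were sequenced. Per the study's methods, the authors used cutadapt for trimming, Segemehl for alignment to Ensembl transcripts (hg38; coding and non-coding) and BitSeq for quantification. Tool versions and the use of strand are not given in the sources used here. For each library the authors deposited RPKM as a natural log, namely its posterior mean (unit ln), with the posterior variance of that log. Reads that fit several isoforms are shared out by BitSeq, so values of isoforms with few distinguishing bases are less certain than their sums.

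RPKM was taken as the exponential of the mean, summed per gene, and put on a log2(RPKM + 0.1) scale. The 20714 genes and 54671 transcripts that reached a mean of 1 RPKM were fitted with limma 3.58.1 (R 4.3.3, empirical Bayes with trend), and p-values were adjusted by the Benjamini-Hochberg method over all of them. Isoform shares were compared by two-sided exact permutation tests. No read totals were used. Posterior variances gave the equivalent reads, namely the read count that would have the same variance. The level that empty transcripts take gave relative depth. Both cover counting and assignment error only. On simulated data, limma recovered 85.5% of 200 genes changed by 3 on the log2 scale and 0% of 200 changed by 1, and for transcripts 21.5% and 0%.

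The members and gene lists were chosen with earlier results of these data known. All member genes, member transcripts of at least 1 RPKM, and of each other list the called genes or, with none called, those with the highest and lowest fold change could be named, beside DIS3L2 and 3 genes with the most similar pattern. ATF4 and the sums over copies were added after their values were seen. The highest of the accessory factors is not reported here. Alternatives were other pseudocounts (1 and 0.01), no filter, a mean of at least 5 RPKM, median centring, quantile normalization, a replicate block, limma without trend, RPKM taken as the posterior mean on the linear scale, sums over transcripts of at least 1 RPKM, and each library left out. Replicate numbers did not pair the libraries (correlations of deviations 0.070, 0.22 and −0.11). Positions, transcript types and sequences come from GENCODE v44lift37 on GRCh37, and no coordinate was converted. The share of the leading isoform was also computed for all tested genes with at least 2 transcripts. Figures were drawn with matplotlib 3.10.9. The CLIP data were not analysed here beyond membership in the list.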

Additional observations from a re-analysis of the deposited data

How the results depend on the processing

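No NMD factor gene was called by limma under any of the 16 alternatives, and the lowest adjusted p was 0.0732, for SMG9 without D391N replicate 1. With the replicate block 0 member genes and 0 member transcripts were called (UPF3B adjusted p = 0.190), and the block cut calls over all genes from 29 to 2. Without D391N replicate 1, calls over all genes rose to 2261. They were 61 at a pseudocount of 1, 16 at a pseudocount of 0.01, 18 with no filter, 6 at a mean of at least 5 RPKM, 14 with median centring, 17 with quantile normalization, and 19 for sums over transcripts of at least 1 RPKM. With 1 library left out, member transcripts called ranged from 0 to 3 of 47. The 3 were without D391N replicate 1, where 4961 of all 54671 transcripts were called. They were ENST00000580498 of SMG8 (limma adjusted p = 0.022), ENST00000601981 of UPF1 (limma adjusted p = 0.032) and ENST00000479712 of UPF3A (1.42, limma adjusted p = 0.045). ENST00000601981 had under 3 equivalent reads in either D391N library left. Calls among the 49 other listed genes (pathway, substrates and SMG1 copies) ranged from 0 to 2, the 2 being GAS5 (−0.92, limma adjusted p = 0.040) and SNHG1 without D391N replicate 1. Leading isoform shares that did not overlap ranged from 2 to 5 of 9, the 5 being without D391N replicate 1. Gene levels over all genes also separated more often in that setting. The matching share over all genes was computed with all 6 libraries only, so 5 of 9 cannot be read as an excess. Transcript calls over all features were 33, and 142 at a pseudocount of 1, 24 at 0.01, 18 with no filter, 17 at a mean of at least 5 RPKM, 7 with the replicate block, 52 without trend and 4961 without D391N replicate 1.

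Median centring moved the median of all genes by 0.22 and quantile normalization by 0.17. Median centring reversed UPF1 (0.010), SMG1 (0.12), SMG5 (0.12) and SMG9 ENST00000270066 (0.034), none of them called. With 1 library left out, the sign also turned within these log2 ranges: SMG6 −0.16 to 0.18, ENST00000263073 −0.049 to 0.21, SMG8 ENST00000300917 −0.027 to 0.21, SMG9 ENST00000270066 −0.27 to 0.22, UPF2 ENST00000460569 −0.18 to 0.75, UPF3A ENST00000493727 −0.26 to 0.66 and UPF3B ENST00000276201 −0.058 to 0.53. Share differences turned for UPF2 (−0.784 to 9.35 points), UPF3A (−6.29 to 0.476) and UPF3B (−26.0 to 0.666). The cause was not tested. The simulated recovery above shows that changes of 1 on the log2 scale could pass unseen with 3 libraries a group.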

Other observations

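Over the 6 libraries, the genes whose log2 level followed the mean of the 9 NMD factors most closely, among 8615 genes with a mean of at least 10 RPKM, were NDE1 (r = 0.995), ZNF791 (r = 0.991) and GPSM2 (r = 0.990). The points share their libraries, and D391N replicate 2 was the highest of all 6 for each: NDE1 had 33.2 RPKM there and 19.9 to 24.2 RPKM elsewhere, ZNF791 34.8 against 16.7 to 21.5 RPKM, and GPSM2 23.5 against 17.1 to 19.6 RPKM.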
